A study of Mus musculus with 22 samples.

Results

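The 10 genes described here are 6 ligands of the fibroblast growth factor (FGF) family, Fgf3, Fgf4, Fgf5, Fgf8, Fgf15 and Fgf17, and 4 genes that FGF signalling is known to switch on as feedback, Dusp6, Spry2, Spry4 and Etv4. They were taken by symbol from the 32285 genes of the deposited count matrices, where each symbol had 1 row. Levels are given as CPM, the unique molecular identifiers (UMIs) of a gene per 1000000 UMIs of all genes in the same gastruloid or in the cells of 1 type of that gastruloid. A UMI marks 1 captured RNA molecule. The assay reads the 3′ end of each transcript, so CPM needs no correction for gene length.

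Gastruloids are balls of cultured mouse embryonic stem cells in which tissues of the gastrulating embryo arise. All came from the wild-type line E14Tg2A, seeded at 300 cells a well, and all received 3 µM CHIR99021, which blocks GSK3 and so turns on Wnt signalling, after 48 h of aggregation; no group lacked this pulse. MULTI-seq tags the cells of each gastruloid with a DNA barcode before pooling, so the gastruloid is the replicate here and the lanes of a pool are technical splits. MULTI-seq 1 gave 24 gastruloids of day 5 with at least 30 cells. MULTI-seq 2 gave 11 of day 4 and 12 of day 4.5. The largest experiment, MULTI-seq 3, gave 24 of day 3 and 16 each of days 3.5, 4, 4.5 and 5. Days 3.5 and 4 of MULTI-seq 3 shared a pool, as did days 4.5 and 5 of MULTI-seq 3 and days 4 and 4.5 of MULTI-seq 2. Any other pair of days differs in pool as well, and there the day and the pool cannot be told apart. Gastruloids of 1 experiment came from 1 cell line, so p-values measure the spread between gastruloids and not between lines or independent cultures.

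FGF ligands are secreted proteins that bind FGF receptors, which are tyrosine kinases, together with heparan sulphate on the cell surface. The activated receptor signals through the adaptor FRS2 and RAS to the kinase ERK. ERK switches on ETS transcription factors such as Etv4 and also its own brakes: the phosphatase Dusp6, which inactivates ERK, and the Sprouty proteins Spry2 and Spry4, which act between the receptor and the kinase cascade. At the tail end of the embryo FGF signals keep cells of the primitive streak and caudal epiblast moving and immature, maintain neuromesodermal progenitors (NMPs, which give rise to spinal cord and to trunk mesoderm), and fade towards the front of the presomitic mesoderm (PSM), where somites form.

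The genes of 3 ligands neighbour each other, so their positions and 2 of their promoters are shown before their levels. Fgf3 (ENSMUSG00000031074) lies at chr7:144838083-144844436, Fgf4 (ENSMUSG00000050917) at chr7:144847367-144865243 and Fgf15 at chr7:144896531-144900953, all on the plus strand of mm10 in the GENCODE annotation. The gaps between them are 2930 and 31287 bases, and the 3 genes span 62871 bases. Fgf5 lies at chr5:98254184-98277030 and Dusp6 at chr10:99263231-99267489 on the plus strand; Fgf8 at chr19:45736798-45742915, Fgf17 at chr14:70636203-70642268, Spry2 at chr14:105891947-105896819 and Etv4 at chr11:101769742-101785371 lie on the minus strand. The RefSeq promoter table (GRCm38.p6) matched 5 of the 10 members: Fgf3, Fgf4, Fgf5, Dusp6 and Spry2. The 250 bases before the RefSeq start are printed for Fgf3 and Fgf4, the closest neighbours, whose steps are set side by side below. They are chr7:144838362-144838611 and chr7:144861136-144861385, plus strand, and both lie inside the intervals that GENCODE gives to these genes. Capitals mark TTCAAAG, letters that TCF/LEF factors, the effectors of Wnt signalling, are known to bind.
Fgf3: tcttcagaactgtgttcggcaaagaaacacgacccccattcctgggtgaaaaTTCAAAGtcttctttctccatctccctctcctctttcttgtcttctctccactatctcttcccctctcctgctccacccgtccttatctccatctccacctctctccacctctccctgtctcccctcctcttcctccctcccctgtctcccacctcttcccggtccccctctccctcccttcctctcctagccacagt
Fgf4: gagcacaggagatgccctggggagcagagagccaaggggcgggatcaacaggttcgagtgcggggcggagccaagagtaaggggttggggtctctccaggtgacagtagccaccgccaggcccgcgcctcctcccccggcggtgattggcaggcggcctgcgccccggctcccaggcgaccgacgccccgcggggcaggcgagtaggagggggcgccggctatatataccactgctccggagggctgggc
The search covered both strands of the 250 bases for TTCAAAG and for CCGGAAG, a core of ETS sites. TTCAAAG had 1 match, in Fgf3, and none in the other 4 promoters. CCGGAAG had no match in any of the 5. Over the 32851 promoters of the table, 4.46% held TTCAAAG and 6.91% held CCGGAAG in the same window.

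The 18 lanes used held 64703013 to 307883815 UMIs, with a median of 8287 to 38443 UMIs per cell. The median mitochondrial share per cell was 1.94% to 2.26% in the lanes of MULTI-seq 3 and 4.85% to 5.48% in all others. Of 77674 cells, 53730 carried the barcode of a called gastruloid. At most 15 cell barcodes were shared by any of the 153 pairs of lanes (median 4). The authors' 25 cell type names were used as given. In MULTI-seq 3 the cells named NMPs held the defining markers T (255.8 CPM), Sox2 (74.5 CPM) and Nkx1-2 (94.6 CPM), and Caudal Epiblast held T (446.4 CPM) and Nkx1-2 (180.3 CPM). Caudal Epiblast also held Sox2, with means of 38.7 CPM at day 3.5 and 50.3 CPM at day 4, beside 58.9 CPM in NMPs at day 4.5. It thus held each of these NMP markers. Primitive Streak held T (644.7 CPM) and Mixl1 (53.2 CPM), and Early Posterior PSM held Tbx6 (131.5 CPM) and Hes7 (166.7 CPM). Msgn1, also a posterior PSM marker, was low in Early Posterior PSM (means of 20.8 CPM at day 3.5 and 5.35 CPM at day 4). Hes7 was not particular to this type: at day 4 its mean was 189.1 CPM there and 261.8 CPM in Caudal Epiblast. By the embryo reference names that the authors mapped cells to, 70.7% of Early Posterior PSM cells were Intermediate mesoderm. The types are clusters of expression and 9 of the 10 members, all but Spry2, were among the authors' highly variable genes, so differences between types are given as a description with no test, and tests within a type are conditional on the naming.

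The ligands differed in their top cell types, but these overlapped in part. Fgf3, Fgf4, Fgf8 and Fgf17, called the caudal ligands here, had their highest mean in NMPs or Caudal Epiblast. Fgf5 was highest in Early Nascent Mesoderm, where Fgf3 was near its NMP level. Fgf15 was highest in Late Neurectoderm, followed by Caudal Epiblast. The heat map of mean levels by type shows this for the 20 types of MULTI-seq 3 that had at least 20 cells in at least 3 gastruloids. Values are means ± SD over n gastruloids, all days joined. The types occur on different days, so this order of types also mixes days.

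**Figure D1:**
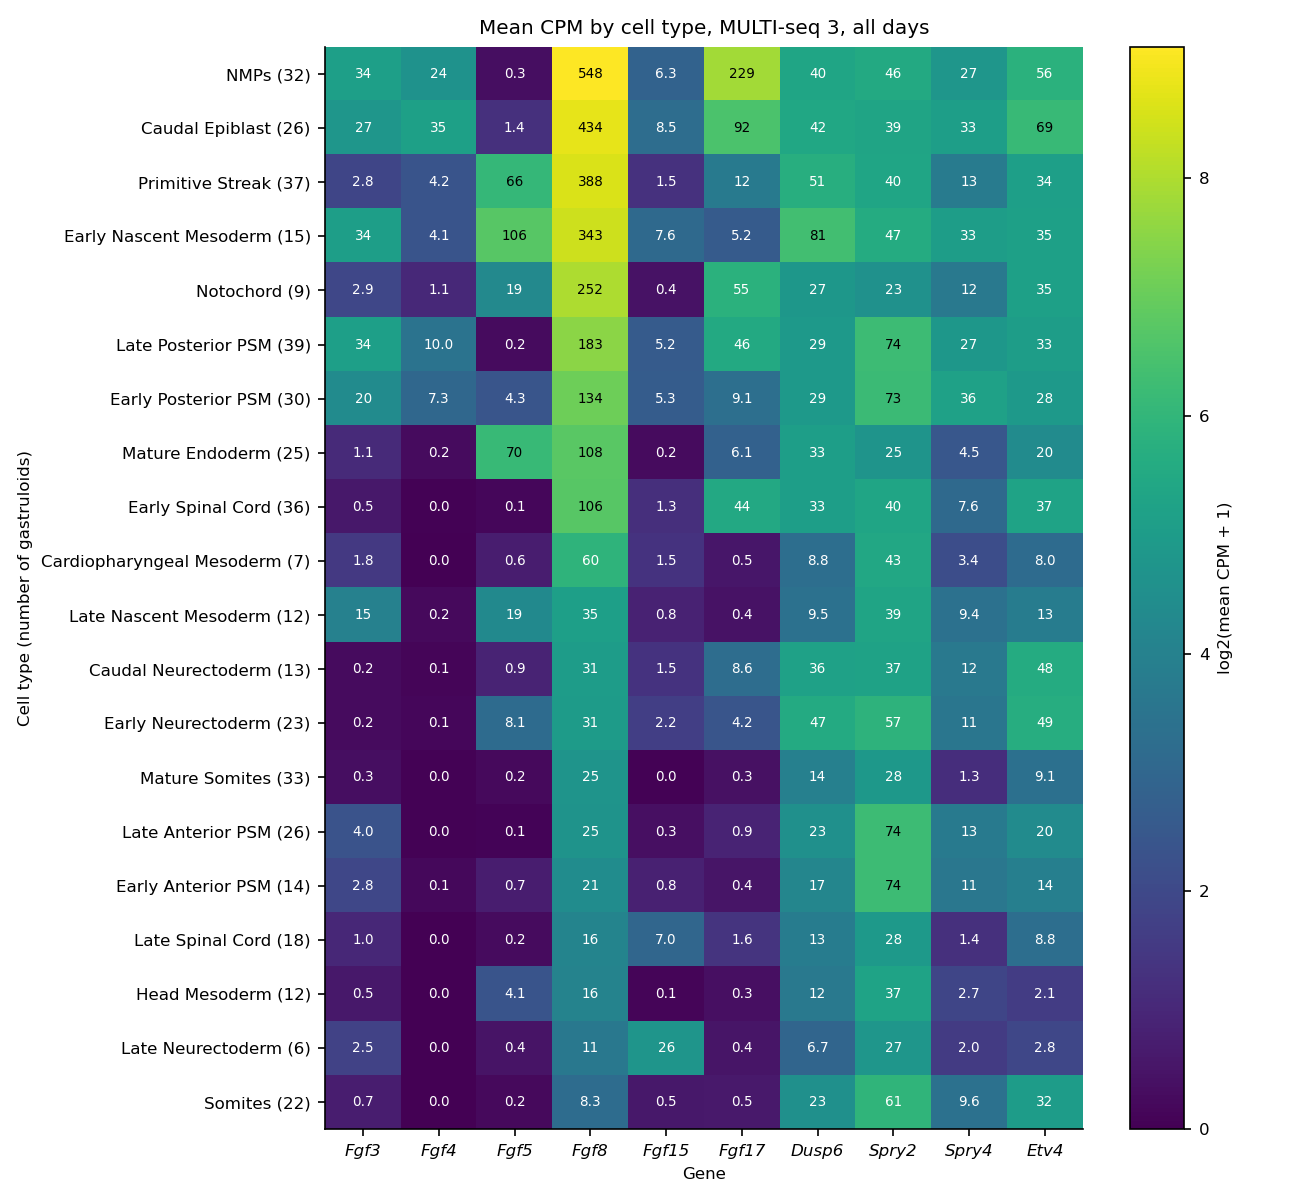
Mean level of the 10 members (columns) in the 20 cell types of MULTI-seq 3 (rows, with the number of gastruloids), as log2(mean CPM + 1), all days joined. NMPs and Caudal Epiblast hold the highest levels of Fgf8, Fgf17, Fgf4 and Etv4, and Fgf5 is highest in Early Nascent Mesoderm (106.5 CPM).

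Fgf8, the main FGF of the tail end and of several other signalling centres, was the most abundant member. Its level was 548.5 ± 70.4 CPM in NMPs (n = 32), 434.0 ± 109.9 CPM in Caudal Epiblast (n = 26) and 387.7 ± 62.5 CPM in Primitive Streak (n = 37). With days joined, NMPs stood above Caudal Epiblast by more than the larger SD, whereas Caudal Epiblast and Primitive Streak did not differ by it. On 1 day the order was less clear: at day 4 Caudal Epiblast (349.4 to 632.6 CPM, median 497.9) overlapped NMPs (402.7 to 635.0 CPM, median 523.0), and at day 3.5 Primitive Streak had the higher median (422.9 against 367.5 CPM). Late Posterior PSM, the mesoderm next to the NMPs, held 183.4 ± 27.4 CPM (n = 39), and Somites, the lowest type, held 8.35 ± 5.05 CPM (n = 22). Fgf17, a close relative of Fgf8 in the same subfamily, was narrower with days joined. It stood at 228.7 ± 55.9 CPM in NMPs against 91.9 ± 48.8 CPM in Caudal Epiblast and 55.4 ± 32.5 CPM in Notochord (n = 9), and its sixth type, Primitive Streak, held 12.3 ± 10.5 CPM. At day 3.5 its medians were 54.5 CPM in Caudal Epiblast and 23.5 CPM in Primitive Streak. At day 5 of MULTI-seq 1 the difference in breadth was less clear. There NMPs held 408.0 CPM of Fgf8 and 293.8 CPM of Fgf17, Early Spinal Cord 122.6 and 84.5 CPM, and Late Posterior PSM 121.1 and 73.8 CPM.

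Fgf4, a growth factor of the primitive streak and the tailbud, was a low gene with 35.1 ± 29.2 CPM in Caudal Epiblast, 23.7 ± 19.9 CPM in NMPs and 10.0 ± 5.89 CPM in Late Posterior PSM. Its SD in the top type was nearly as large as its mean, and no neighbours among its 3 top types differed by more than the larger SD. In Somites Fgf4 had 0 UMIs in each gastruloid. Fgf3, known for its part in tail and inner ear development, had near-equal means in 3 types: 34.1 ± 15.1 CPM in NMPs, 33.9 ± 8.58 CPM in Late Posterior PSM and 33.6 ± 15.2 CPM in Early Nascent Mesoderm (n = 15). By day, the medians of Fgf3 were 51.0, 38.8 and 21.3 CPM in NMPs and 32.3, 39.1 and 30.7 CPM in Late Posterior PSM at days 4, 4.5 and 5, and 38.2 and 12.5 CPM in Early Nascent Mesoderm at days 3 and 3.5. NMPs and Late Posterior PSM were thus near-equal at day 4.5, while NMPs had the higher median at day 4 and Late Posterior PSM at day 5. In contrast, Fgf8 and Fgf17 stood at 183.4 and 45.5 CPM in Late Posterior PSM, below their NMP levels by more than the larger SD.

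Fgf5, a gene of the epiblast before and during gastrulation, had its highest levels in Early Nascent Mesoderm (106.5 ± 38.5 CPM), Mature Endoderm (69.7 ± 75.1 CPM, n = 25) and Primitive Streak (66.4 ± 33.6 CPM). Neighbours in this order did not differ by more than the larger SD. Fgf15, a ligand of the neural tube and midbrain that later acts as a gut hormone, was low in all types. Its highest level was 25.9 ± 14.2 CPM in Late Neurectoderm (n = 6), above the 8.51 ± 6.02 CPM of Caudal Epiblast by more than the larger SD. Early Nascent Mesoderm followed with 7.60 ± 5.19 CPM.

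The feedback genes did not share 1 order. Etv4 was highest in Caudal Epiblast (68.9 ± 16.2 CPM), NMPs (55.7 ± 9.25 CPM) and Early Neurectoderm (49.3 ± 18.5 CPM, n = 23), the last a type with 30.5 ± 13.4 CPM of Fgf8 and 0.105 ± 0.263 CPM of Fgf4. Dusp6 held 80.6 ± 26.3 CPM in Early Nascent Mesoderm, 51.0 ± 7.40 CPM in Primitive Streak and 46.6 ± 9.96 CPM in Early Neurectoderm. Spry4 stood at 36.2 ± 7.69 CPM in Early Posterior PSM (n = 30), 33.4 ± 7.43 CPM in Caudal Epiblast and 32.5 ± 7.44 CPM in Early Nascent Mesoderm, and its lowest level was 1.30 ± 0.839 CPM in Mature Somites (n = 33).

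Spry2 was the broad gene of the set. Its top types were Late Anterior PSM (74.3 ± 10.4 CPM, n = 26), Late Posterior PSM (74.1 ± 14.1 CPM) and Early Anterior PSM (73.8 ± 7.15 CPM, n = 14), and its lowest was Notochord with 23.4 ± 3.85 CPM. For Spry2 the front of the PSM thus held as much as its rear, and no neighbours among the 3 top types differed by more than the larger SD.

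A few rare types fell below the minimum of 20 cells per gastruloid and are given as pooled values with exact Poisson 95% intervals, which cover counting error only. Anterior Primitive Streak (176 cells from 41 gastruloids) held 551.8 CPM of Fgf8 (532.9 to 571.1), as much as NMPs, and 255.8 CPM of Fgf5 (243.0 to 269.1), above all types with a level. It held 62.5 CPM of Dusp6 and 0 UMIs of Fgf4. The 94 cells named primordial germ cells held 27.4 CPM of Fgf4 (22.5 to 33.1). By the authors' mapping to embryo reference names, 91.5% of them were Epiblast.

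Grouping the same cells by the embryo reference names that the authors mapped them to kept the top places of Fgf8 (NMPs/Mesoderm-biased, 568.7 CPM) and Fgf17 (the same name, 233.2 CPM). It moved the highest level of Fgf5 to 205.4 ± 36.2 CPM in the reference's Anterior Primitive Streak (n = 7) and lowered that of Dusp6 to 54.0 CPM in Nascent mesoderm. Of the cells named Mature Endoderm, 49.2% were mapped to Gut tube and 16.8% (316 cells) to Anterior Primitive Streak. In the cluster named Anterior Primitive Streak, 113 cells were mapped to that name. The part of the 316 cells in the Fgf5 level of Mature Endoderm was not tested.

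The UMIs of the caudal ligands came from few types, and which types these were changed with the day. At day 3 Primitive Streak gave a mean of 71.7% of a gastruloid's Fgf8 UMIs, beside 57.1% of its UMIs of all genes. At day 3.5 Primitive Streak gave 32.7% and Caudal Epiblast 32.6%, and at day 5 NMPs gave 41.4% of the Fgf8 UMIs although they held 7.48% of all UMIs. The main source of Fgf17 went from Primitive Streak (56.5% at day 3) over Caudal Epiblast (39.4% at day 3.5) to NMPs (54.9% at day 5). At day 3 the Fgf17 share of Primitive Streak was near the 57.1% of all UMIs that this type held. Day 5 Fgf3 came from Late Posterior PSM (47.0%) and NMPs (34.3%), and day 5 Fgf4 from NMPs (49.5%) and Late Posterior PSM (41.5%). Fgf5 moved from Primitive Streak at day 3 (68.2%, beside the same 57.1% of all UMIs) to Mature Endoderm at day 4 (66.4%).

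Over whole gastruloids of MULTI-seq 3, Fgf5, Fgf8 and Dusp6 fell after day 3, Etv4 after day 3.5 and Spry4 after day 4, and Fgf17 rose. The plot of levels by day shows each gastruloid. In sums over a whole gastruloid, fewer cells of a type and less RNA per cell cannot be told apart. Changes were tested with edgeR's quasi-likelihood test (Benjamini-Hochberg adjusted p under 0.05 over all genes tested) and are log2 fold changes ± SE.

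**Figure D2:**
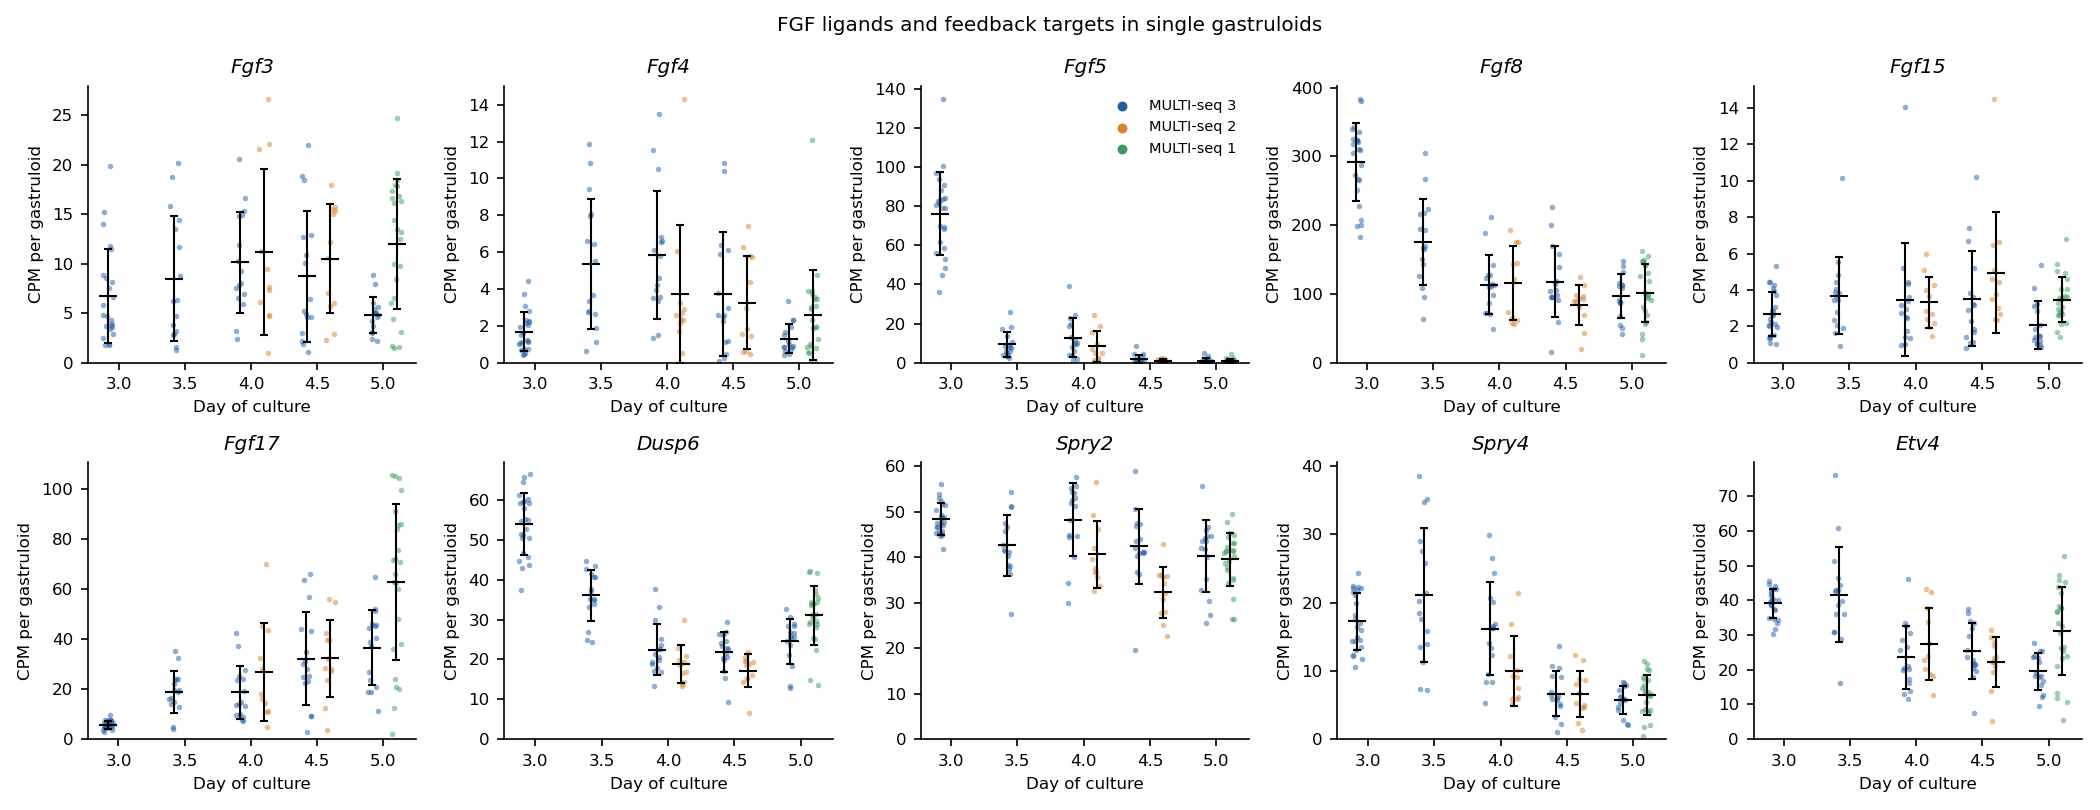
Levels (CPM) of the 10 members in single gastruloids by day of culture; points are gastruloids, coloured by experiment, and bars are means ± SD. In MULTI-seq 3 the mean of Fgf8 is 291.6 CPM at day 3 and 113.5 CPM at day 4, and that of Fgf17 is 5.81 CPM at day 3 and 36.7 CPM at day 5.

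Fgf5 at day 3 was lowest at 36.1 CPM, with a median of 80.2 and a highest value of 134.9 CPM, and at day 3.5 it ran from 2.38 over 7.72 to 25.9 CPM. The 2 days did not overlap, and in 14.6% of the 12161 genes with a mean of at least 1 CPM they did not either. Fgf8 ran from 182.6 over 309.6 to 383.7 CPM at day 3 and from 63.7 over 167.6 to 305.3 CPM at day 3.5, where all 16 gastruloids were below the day 3 median. Dusp6 ran from 37.3 over 54.9 to 66.4 CPM at day 3 and from 24.5 over 36.2 to 44.8 CPM at day 3.5, again with all 16 below the day 3 median. The fitted changes from day 3 to day 3.5 were −3.10 ± 0.22 for Fgf5 (adjusted p = 1.71e-16), −0.88 ± 0.13 for Fgf8 (adjusted p = 1.78e-07), −0.74 ± 0.07 for Dusp6 (adjusted p = 4.98e-12) and −0.33 ± 0.06 for Spry2 (adjusted p = 1.09e-06). Fgf4 and Fgf17 rose over the same step: Fgf17 went from a range of 2.92 to 9.53 CPM (median 5.68) to one of 4.22 to 35.2 CPM (median 19.2), a change of 1.57 ± 0.17 (adjusted p = 7.13e-11), and Fgf4 changed by 1.56 ± 0.28 (adjusted p = 3.04e-06) from a mean of 1.68 to 5.35 CPM. So 6 of the 10 members passed, where 74.8% of the 11981 genes tested did, and day 3 was a pool of its own. Fgf3, Fgf15, Spry4 and Etv4 did not pass (log2 changes of 0.21, 0.33, 0.16 and −0.08).

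From day 3.5 to day 4, in 1 pool, 3 members fell and none rose. Fgf8 fell to a range of 48.8 to 211.8 CPM (median 112.2), with 14 of 16 gastruloids below the day 3.5 median (−0.66 ± 0.19, adjusted p = 0.00362). Dusp6 fell from a mean of 36.1 ± 6.36 to 22.5 ± 6.37 CPM (−0.72 ± 0.11, adjusted p = 3.48e-06, 15 of 16 below). Etv4 fell from 41.6 ± 13.7 to 23.5 ± 9.18 CPM (−0.85 ± 0.18, adjusted p = 0.000146, 15 of 16 below). Spry4 had a log2 change of −0.44 that did not pass (adjusted p = 0.106), and neither did Fgf17, with 18.9 ± 8.34 and 18.7 ± 10.6 CPM (−0.08). Of the 13262 genes tested, 60.4% were called, so 3 of 10 is a lower share than among all genes.

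Between day 4 and day 4.5 of MULTI-seq 3, which lie in different pools, Spry4 fell from a range of 5.33 to 29.9 CPM (median 16.3) to one of 1.04 to 13.6 CPM (median 6.16), with all 16 gastruloids below the day 4 median (−1.07 ± 0.25, adjusted p = 0.000364). Fgf5 fell from a mean of 12.7 ± 10.1 to 1.72 ± 2.32 CPM (−2.62 ± 0.50, adjusted p = 3.03e-05) and Fgf17 rose from 18.7 ± 10.6 to 32.2 ± 18.7 CPM (0.99 ± 0.31, adjusted p = 0.00555). These were 3 of 10 members, beside 66.1% of 12843 genes. From day 4.5 to day 5, again in 1 pool, Fgf4 fell from a range of 0.0696 to 10.8 CPM (median 2.60) to one of 0.429 to 3.34 CPM (median 0.950; −1.53 ± 0.41, adjusted p = 0.0113), with 15 of 16 gastruloids below the earlier median. Fgf3 fell from a range of 1.09 to 22.0 CPM (median 5.81) to one of 2.15 to 8.88 CPM (median 4.92; −0.91 ± 0.31, adjusted p = 0.0450), with 13 of 16 below. Here 2 of 9 members tested were called, beside 13.5% of 12298 genes. Without lane A of that pool neither passed: the change was −0.81 for Fgf3 (adjusted p = 0.115) and −1.20 for Fgf4 (adjusted p = 0.0583). The call of Fgf3 was also lost with no filter on low counts (adjusted p = 0.0733) and with scaling by total UMIs (adjusted p = 0.0524).

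Scaling by total UMIs in place of the trimmed mean of M-values (TMM) shifted the median log2 change of all genes from 0.03 to 0.19 for day 3.5 against day 3 and from −0.02 to −0.22 for day 4.5 against day 4 in MULTI-seq 3. The genes called higher and lower went from 4704 and 4260 to 6629 and 2566 in the first of these and from 4158 and 4337 to 2235 and 6886 in the second. For day 4 against day 3.5 the split was 4131 and 3875, and 4622 and 3364 with total UMIs. For day 5 against day 4.5 it was 781 and 874, and 903 and 645. The members' changes in the paragraphs above are relative to the TMM scale, and none of the called ones changed direction. The fall of Spry2 from day 3 to day 3.5 was −0.18 with total UMIs, and Fgf15 was then also called for that step (0.49, adjusted p = 0.0256).

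Within the pool of days 3.5 and 4, the whole-gastruloid fall of Fgf8 was not seen inside Caudal Epiblast, where 5 ligands rose. The question of where a change lies was addressed in 2 ways: by splitting each mean change into a part from the makeup (each type's share of UMIs, at the average level) and a part from the level inside types (at the average share), and by testing inside the 2 types that had at least 20 cells in at least 4 gastruloids on both days. The mean of Fgf8 changed by −61.6 ± 19.0 CPM (jackknife SE over gastruloids), of which the makeup part was −62.7 ± 16.9 CPM and the level part 1.04 ± 8.34 CPM. This level part summed terms of opposite sign. The largest were 16.6 CPM for Caudal Epiblast, −8.25 CPM for Mature Endoderm and −5.47 CPM for Early Posterior PSM. The largest makeup terms of Fgf8 were −50.2 CPM for Caudal Epiblast and −47.7 CPM for Primitive Streak, types whose share of UMIs was smaller at day 4. Dusp6 was alike, with −12.6 ± 1.96 CPM of its −13.6 ± 2.25 CPM in the makeup part, and so was Etv4, with −14.6 ± 2.55 of −18.0 ± 4.12 CPM. Fgf4 and Fgf17, whose whole-gastruloid means changed by less than their SE (0.50 ± 1.23 and −0.25 ± 3.37 CPM), held 2 parts of opposite sign: −3.58 ± 1.12 CPM of makeup against 4.08 ± 1.09 CPM of level for Fgf4, and −8.95 ± 3.26 against 8.70 ± 1.97 CPM for Fgf17.

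**Figure D3:**
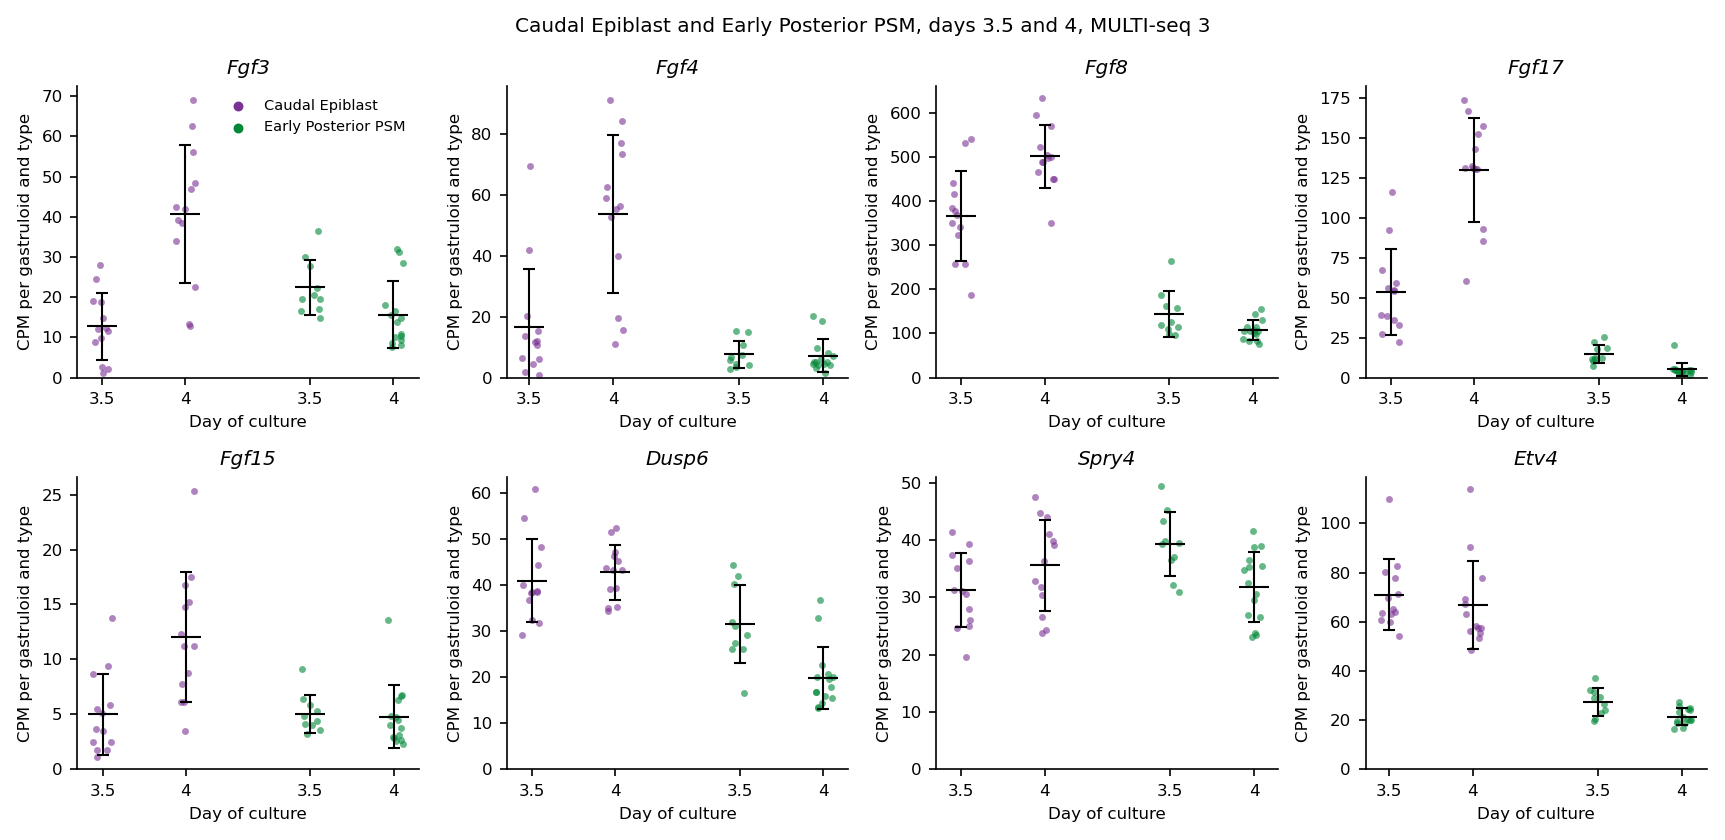
Levels (CPM) of 8 members at days 3.5 and 4 of MULTI-seq 3 in Caudal Epiblast and in Early Posterior PSM; each point is the cells of that type in 1 gastruloid, bars are means ± SD. Fgf17 goes up in Caudal Epiblast (medians 54.5 and 131.6 CPM) and down in Early Posterior PSM (12.5 and 4.03 CPM).

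Inside Caudal Epiblast (13 gastruloids on each day) Fgf3 ran from 1.13 over 12.1 to 28.0 CPM at day 3.5 and from 12.9 over 42.1 to 69.1 CPM at day 4, where 10 of 13 gastruloids lay above the highest of the earlier day (1.70 ± 0.28, adjusted p = 4.49e-05). Fgf17 ran from 22.3 over 54.5 to 116.4 CPM and then from 60.7 over 131.6 to 174.1 CPM, again with 10 of 13 above the earlier maximum (1.25 ± 0.18, adjusted p = 1.06e-05). Fgf4 ran from 0.874 over 11.7 to 69.4 CPM and then from 10.9 over 56.5 to 91.0 CPM (1.70 ± 0.35, adjusted p = 0.000793). Fgf4 overlapped more than the other 2, with 12 of 13 above the earlier median and 4 above its maximum.

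Fgf15 (1.33 ± 0.28, adjusted p = 0.000985; medians 3.69 and 11.2 CPM) and Fgf8 (0.46 ± 0.12, adjusted p = 0.00418; medians 367.5 and 497.9 CPM) rose in Caudal Epiblast too, each with 12 of 13 gastruloids above the earlier median. None of the 4 feedback genes passed there. Dusp6 had medians of 38.6 and 43.4 CPM, Spry4 of 31.2 and 36.4 CPM and Etv4 of 65.4 and 58.3 CPM, with log2 changes of 0.08, 0.24 and −0.08, and Spry2 had a log2 change of 0.10. In all 5 of the 9 members tested were called, beside 18.8% of 8851 genes (848 higher and 813 lower; 753 and 908 with total UMIs). With a minimum of 40 cells per type Fgf4 (1.39, adjusted p = 0.0649) and Fgf8 (0.37, adjusted p = 0.145) lost their calls, while Fgf3, Fgf15 and Fgf17 kept theirs.

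The share of Caudal Epiblast cells with a UMI moved in the same direction when each cell was thinned to 5000 UMIs. For Fgf4 it went from 5.76% to 21.8% (unthinned 25.4% to 45.9%), for Fgf3 from 6.72% to 15.6% (26.1% to 50.1%) and for Fgf17 from 21.2% to 43.9% (72.8% to 89.6%), although the median cell held fewer UMIs at day 4 (31131 against 38466). Mature Somites of day 4 in the same pool, a type in which these genes were near 0 (7 gastruloids, median cell 28007 UMIs), gave thinned shares of 0% for Fgf4, 0.321% for Fgf3 and 0.307% for Fgf17.

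Inside Early Posterior PSM (10 gastruloids at day 3.5 and 15 at day 4) 3 of the ligands that rose in Caudal Epiblast, Fgf3, Fgf8 and Fgf17, fell. Fgf17 ran from 7.06 over 12.5 to 25.3 CPM and then from 1.70 over 4.03 to 20.4 CPM, with 14 of 15 gastruloids below the lowest of day 3.5 (−1.80 ± 0.22, adjusted p = 7.36e-08). Fgf3 fell from a median of 20.1 to 13.8 CPM (−0.75 ± 0.18, adjusted p = 0.00147, 9 of 15 below the earlier minimum) and Fgf8 from 122.7 to 105.0 CPM (−0.46 ± 0.13, adjusted p = 0.00551). The ligands Fgf4 and Fgf15 did not pass (−0.17 and −0.32).

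The feedback genes Etv4, Dusp6 and Spry4 fell with them in Early Posterior PSM. Etv4 ran from 19.6 over 27.8 to 37.1 CPM and then from 16.2 over 20.3 to 27.2 CPM, with all 15 below the earlier median (−0.46 ± 0.09, adjusted p = 0.000129). Dusp6 went from a median of 30.1 to 17.8 CPM (−0.73 ± 0.14, adjusted p = 0.00013) and Spry4 from 39.3 to 32.6 CPM (−0.39 ± 0.09, adjusted p = 0.000741, 14 of 15 below the earlier median). Spry2 went against them and rose from 64.3 to 75.8 CPM (0.18 ± 0.06, adjusted p = 0.0214). In all 7 of 9 members tested were called, beside 36.9% of 10049 genes (1843 higher and 1867 lower; 2766 and 1259 with total UMIs).

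After the fits within each type had been seen, the difference between the 2 types in this step was itself tested on the same data. Gastruloids that had both types were used (10 at day 3.5, 12 at day 4), with the gastruloid as a term. The difference was called for 6 of 9 members, beside 9.05% of 10232 genes (615 of them higher and 311 lower, or 456 and 579 with total UMIs). The change in Caudal Epiblast exceeded that in Early Posterior PSM by 2.82 ± 0.35 for Fgf17 (adjusted p = 1.75e-06), by 2.41 ± 0.36 for Fgf3 (adjusted p = 2.49e-05), by 1.39 ± 0.41 for Fgf15 (adjusted p = 0.0229), by 0.90 ± 0.17 for Dusp6 (adjusted p = 0.000354), by 0.82 ± 0.20 for Fgf8 (adjusted p = 0.00698) and by 0.54 ± 0.13 for Spry4 (adjusted p = 0.00697). It did not pass for Fgf4 (1.71 ± 0.59, adjusted p = 0.0621), Etv4 (0.45 ± 0.15, adjusted p = 0.0518) or Spry2 (−0.13 ± 0.11, adjusted p = 0.575). With at least 40 cells per type, which left 6 gastruloids per day, 4 members were called; Fgf8 (0.92, adjusted p = 0.0567) and Fgf15 (1.42, adjusted p = 0.0643) were not.

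Markers of other cell types moved inside both types over the same step. In Caudal Epiblast the summed level of the epiblast list had a median of 397 CPM (264 to 573) at day 3.5 and 218 CPM (162 to 270) at day 4, and the posterior PSM list went from 195 to 309 CPM. Hes7 made up most of the posterior PSM list (means of 170.7 and 261.8 CPM). Tbx6 had means of 16.5 and 38.4 CPM and Msgn1 of 1.19 and 1.10 CPM. In Early Posterior PSM the primitive streak list went from 251 to 80.8 CPM, the anterior PSM list from 12.4 to 164 CPM and the somite list from 11.9 to 100.5 CPM. The head mesoderm list went from 67.4 to 218.3 CPM there and the epiblast list from 263.0 to 140.6 CPM. T made up most of the primitive streak list (means of 211.9 and 70.8 CPM). The part of these shifts in the members' changes was not tested.

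The earlier step, from day 3 to day 3.5, could be read within Primitive Streak (24 and 13 gastruloids), as values between 2 pools with no test. Fgf4 lay between 0 and 1.71 CPM at day 3 and between 5.68 and 22.6 CPM at day 3.5, and Fgf17 between 2.78 and 8.63 and between 14.6 and 44.3 CPM. Neither gene overlapped between the days, and neither did 5.99% of the 12127 genes with a mean of at least 1 CPM. Fgf5 ran from 61.2 over 89.1 to 125.9 CPM and then from 9.78 over 23.4 to 65.6 CPM, with 12 of 13 below the day 3 minimum. Fgf8 had medians of 366.2 and 422.9 CPM there and overlapped. In Early Posterior PSM (5 and 10 gastruloids) Fgf8 went the other way, with medians of 199.8 and 122.7 CPM and 9 of 10 below the day 3 median, as did Fgf3 (29.0 and 20.1 CPM, 8 of 10 below) and Fgf15 (8.69 and 4.58 CPM, 9 of 10 below). Fgf4 had medians of 6.49 and 6.35 CPM, with 5 of 10 above and 5 below, and Fgf17 had medians of 7.72 and 12.5 CPM, with 9 of 10 above. Fgf5 (13 to 21.9 and 1.23 to 6.33 CPM) and Etv4 (medians 54.0 and 27.8 CPM) did not overlap there, beside 11.9% of 11946 genes. Dusp6 had medians of 49.3 and 30.1 CPM in Early Posterior PSM, with 10 of 10 below the day 3 median. Spry4 (44.1 and 39.3 CPM) and Spry2 (68.6 and 64.3 CPM) each had 8 of 10 below. In Primitive Streak Spry2 had medians of 43.1 and 33.5 CPM (13 of 13 below) and Dusp6 of 51.6 and 47.7 CPM (8 of 13 below). Spry4 (12.7 and 13.8 CPM) and Etv4 (34.9 and 35.2 CPM) had near-equal medians there. In Mature Endoderm, the later source of Fgf5 UMIs, Fgf5 had a median of 69.7 CPM (25.8 to 175.3) at day 4 and of 10.7 CPM (5.74 to 27.4) at day 5.

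Within the NMPs, Fgf3 and Fgf4 fell between day 4.5 and day 5 while Fgf17 and Dusp6 rose. The plot of NMP levels shows the 3 days.

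**Figure D4:**
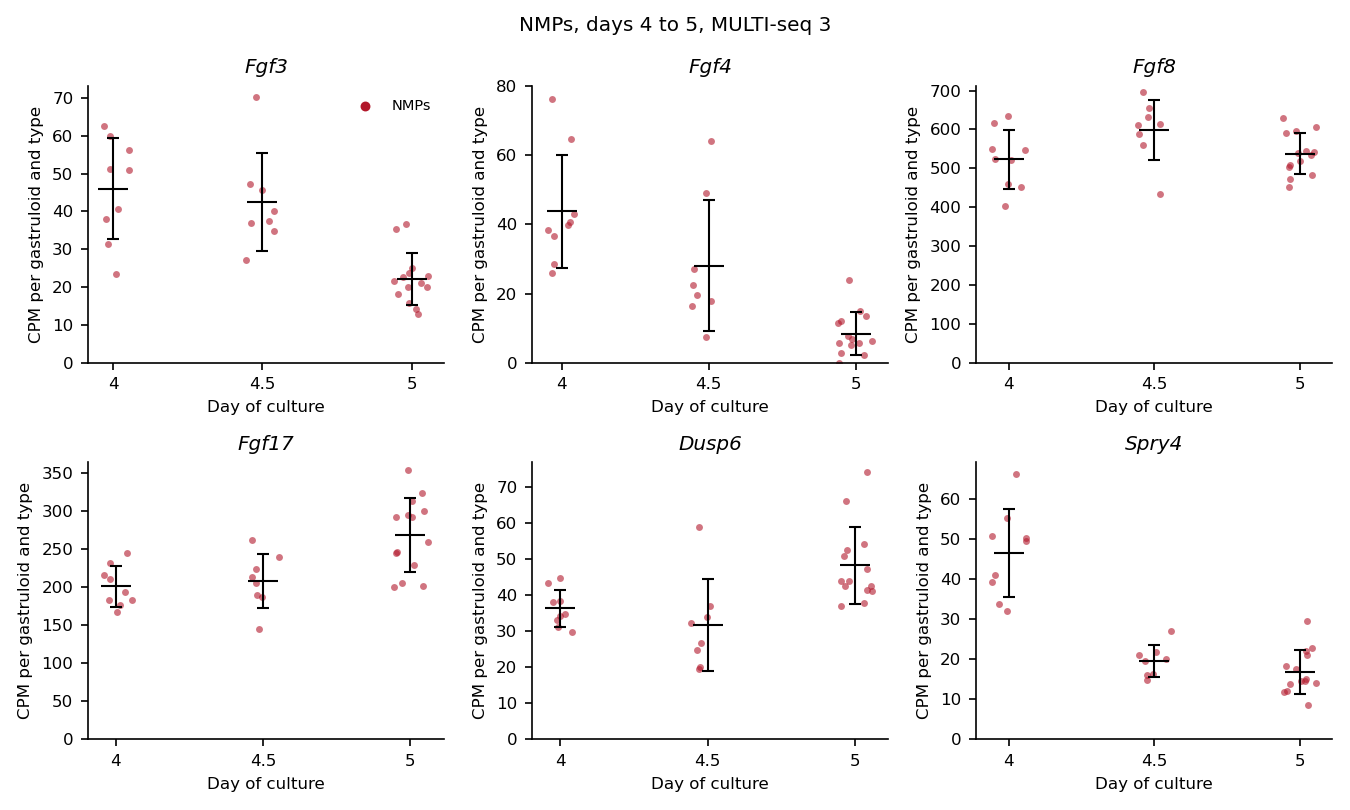
Levels (CPM) of 6 members in the NMPs of single gastruloids at days 4, 4.5 and 5 of MULTI-seq 3; points are gastruloids and bars are means ± SD. Days 4.5 and 5 share a pool; Spry4 at day 4 (32.0 to 66.1 CPM) does not overlap day 4.5 (14.7 to 27.0 CPM).

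Fgf3 in NMPs ran from 27.1 over 38.8 to 70.3 CPM at day 4.5 (8 gastruloids) and from 12.8 over 21.3 to 36.6 CPM at day 5 (14 gastruloids), with 12 of 14 below the earlier minimum (edgeR, −1.09 ± 0.14, adjusted p = 5.72e-07). Fgf4 ran from 7.39 over 21.1 to 64.2 CPM and then from 0 over 6.55 to 23.9 CPM, with 8 of 14 below the earlier minimum (−1.76 ± 0.30, adjusted p = 7.39e-05). The neighbouring genes Fgf3 and Fgf4 were thus both called in this step of the NMPs (6.06% of all genes called), as in Caudal Epiblast from day 3.5 to 4 (18.8%), in whole gastruloids from day 4.5 to 5 (13.5%) and in the comparison of MULTI-seq 3 with MULTI-seq 1 at day 5 described below (63.7%). The whole-gastruloid step is not separate from that of the NMPs, whose level terms were the largest for both genes (−1.67 and −1.46 CPM). Neither gene passed in whole gastruloids without lane A. Fgf3 alone of the 2 was called in Early Posterior PSM (36.9% of all genes called), in Late Posterior PSM (6.15%) and in the difference between types (9.05%). Fgf4 alone was called from day 3 to 3.5 in whole gastruloids (74.8%). Fgf17 ran from 145.4 over 209.5 to 261.7 CPM and then from 200.7 over 275.5 to 353.5 CPM, with 7 of 14 above the earlier maximum (0.30 ± 0.09, adjusted p = 0.0327).

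Dusp6 in NMPs ran from 19.4 over 29.4 to 59.0 CPM and then from 37.1 over 44.0 to 74.1 CPM, with all 14 above the earlier median (edgeR, 0.59 ± 0.14, adjusted p = 0.00515). Fgf8, which stayed the most abundant ligand of the NMPs, went from a median of 613.0 to 537.0 CPM (−0.21 ± 0.06, adjusted p = 0.0302). The Fgf8 call was lost in DESeq2 (adjusted p = 0.0538) and with total UMIs (−0.15, adjusted p = 0.126). These were 5 of 8 members tested, beside 6.06% of 8460 genes (218 higher and 295 lower; 342 and 163 with total UMIs). The thinned share of NMPs with a UMI went from 13.8% to 3.25% for Fgf4 (unthinned 31.5% to 13.5%), from 19.7% to 11.1% for Fgf3 and from 58.7% to 71.6% for Fgf17. In Mature Somites of day 5 in that pool (median cell 24908 UMIs, against 28181 in the NMPs) it was 0% for Fgf4, 0.0185% for Fgf3 and 0.185% for Fgf17.

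Some markers inside the NMPs also moved. T, a defining marker of both NMPs and primitive streak, had means of 216.5 CPM at day 4.5 and 136.4 CPM at day 5. Sox2, a marker of both NMPs and spinal cord, had means of 58.9 and 80.3 CPM, and Nkx1-2, the other NMP marker, of 76.2 and 87.8 CPM. The summed NMP list overlapped between the days, with medians of 333.2 CPM (277.1 to 464.4) and 297.3 CPM (230.7 to 393.8). T and Sox2 made up most of the summed primitive streak list (medians 216 and 143 CPM) and spinal cord list (62.2 and 99.1 CPM). The part of these markers in the members' changes was not tested. One step earlier, and across pools, Spry4 in NMPs ran from 32.0 over 49.4 to 66.1 CPM at day 4 (9 gastruloids) and from 14.7 over 19.7 to 27.0 CPM at day 4.5, without overlap, beside 5.19% of 11729 genes. In the makeup split of day 4.5 to 5 the level part carried most of the fall of Fgf4 (−2.0 ± 0.57 of −2.41 ± 0.86 CPM) and of Fgf3 (−2.63 ± 0.66 of −3.93 ± 1.72 CPM), and Fgf17 had a level part of 9.91 ± 3.14 CPM against a makeup part of −5.43 ± 4.43 CPM.

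Other types of the day 4.5 and 5 pool held fewer changes of the members. In Late Posterior PSM (9 and 15 gastruloids) Fgf8 fell from 178.0 over 198.2 to 231.9 CPM to 142.7 over 159.6 to 226.9 CPM, with 11 of 15 below the earlier minimum (edgeR, −0.30 ± 0.06, adjusted p = 0.00123), and Fgf3 fell from a median of 39.1 to 30.7 CPM (−0.41 ± 0.12, adjusted p = 0.0307; DESeq2 adjusted p = 0.0626). Inside this type the somite list went from a median of 73.6 to 176.9 CPM and the spinal cord list from 9.27 to 29.7 CPM. Tcf15 made up most of the somite list (means of 66.3 and 136.9 CPM) and Sox2 most of the spinal cord list (7.46 and 23.7 CPM). The part of these shifts in the changes of Fgf8 and Fgf3 was not tested. Fgf8 and Fgf3 were 2 of 8 members tested, beside 6.15% of 8421 genes (264 higher and 254 lower; 371 and 169 with total UMIs). In Mature Somites (10 and 16 gastruloids) Dusp6 rose from 6.36 over 9.86 to 21.0 CPM to 12.6 over 18.6 to 21.9 CPM, with all 16 above the earlier median (0.62 ± 0.13, adjusted p = 0.000569), as 1 of 4 members beside 14.6% of 10328 genes. The head mesoderm list in Mature Somites went from 667.9 CPM (591.2 to 752.8) to 453.3 CPM (383.3 to 545.3) without overlap, and the NMP list from 7.51 to 12.8 CPM. Sox2 made up most of the NMP list there (means of 5.23 and 8.99 CPM). The part of these shifts in the change of Dusp6 was not tested.

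The remaining 3 types of that pool gave no called member with edgeR. In Early Spinal Cord (14 and 15 gastruloids) 0 of 6 members were called beside 12.3% of 9150 genes; Fgf17 and Etv4 had an unadjusted p under 0.05, and DESeq2 called Etv4. In Late Spinal Cord (7 and 8 gastruloids) 0 of 5 were called beside 7.79% of 9921 genes (387 higher and 386 lower; 308 and 594 with total UMIs); Fgf8 and Fgf15 had an unadjusted p under 0.05, and DESeq2 called 0. In Late Anterior PSM (5 and 12 gastruloids) 0 of 5 were called beside 1.81% of 7201 genes; Fgf8 had an unadjusted p under 0.05, and DESeq2 called 0.

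MULTI-seq 2 gave a second view of day 4 to 4.5, within 1 pool, and there 1 member was called. Spry2 ran from 32.6 over 37.6 to 56.6 CPM at day 4 and from 22.6 over 33.2 to 42.9 CPM at day 4.5 (−0.33 ± 0.10, edgeR adjusted p = 0.0397), as 1 of 9 members beside 7.36% of 11064 genes (335 higher and 479 lower; 511 and 381 with total UMIs). This call was lost in 5 alternatives, among them without lane 2 (adjusted p = 0.117) and without lane 3 (adjusted p = 0.137). Fgf8 had means of 115.3 ± 53.6 and 84.2 ± 28.9 CPM (−0.45, adjusted p = 0.304). Its split into parts gave −44.0 ± 16.3 CPM of makeup and 12.9 ± 5.94 CPM of level.

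Inside types, MULTI-seq 2 had few gastruloids. In Late Posterior PSM (4 and 8 gastruloids) 0 of 8 members were called with edgeR beside 0.846% of 6737 genes (28 higher and 29 lower; 42 and 25 with total UMIs), with an unadjusted p under 0.05 for Spry4 and 0 calls in DESeq2. In Mature Somites (4 and 7 gastruloids) 0 of 4 were called beside 0.888% of 9126 genes (32 higher and 49 lower; 39 and 25 with total UMIs), with an unadjusted p under 0.05 for Etv4 and 0 calls in DESeq2. The 3 members called between days 4 and 4.5 of MULTI-seq 3 were Fgf5, Fgf17 and Spry4; in MULTI-seq 2 Fgf5 was not tested and had means of 8.28 and 0.934 CPM, with 12 of 12 gastruloids below the day 4 median, and the means of Fgf17 were 26.9 and 32.4 CPM and those of Spry4 9.96 and 6.61 CPM. The difference of the day 4 to 4.5 change between the 2 experiments passed for 0 of 10 members (edgeR; 33.9% of 12551 genes passed), with an unadjusted p under 0.05 for Spry2 and Etv4 and 0 calls in DESeq2. That test sets a change across pools in MULTI-seq 3 against one within a pool in MULTI-seq 2.

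At the same day, the experiments differed in some members; each experiment had pools of its own, so experiment and pool cannot be told apart here. The median mitochondrial share per cell was 5.11% to 5.47% in MULTI-seq 2 against 1.95% to 2.23% in MULTI-seq 3 on these days; its part in the differences was not tested. At day 4, MULTI-seq 3 and MULTI-seq 2 differed in 0 of 10 members (edgeR; 46.1% of 13713 genes), with 0 at an unadjusted p under 0.05 and 0 in DESeq2; with total UMIs Spry2 (0.26, adjusted p = 0.0284) and Spry4 (0.70, adjusted p = 0.0305) were called, and without lane 3 of MULTI-seq 2 Fgf17 was (−1.005, adjusted p = 0.023). At day 4.5, Spry2 (0.42 ± 0.11, adjusted p = 0.00292) and Dusp6 (0.38 ± 0.14, adjusted p = 0.0347) were higher in MULTI-seq 3, 2 of 9 members beside 42.5% of 11695 genes. The Dusp6 difference was lost without lane 3 of MULTI-seq 2 (adjusted p = 0.102), without lane A (adjusted p = 0.0557) or lane C (adjusted p = 0.0603) of MULTI-seq 3, and in 3 further alternatives.

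At day 5, 4 ligands and Etv4 were higher in MULTI-seq 1 than in MULTI-seq 3, and Spry2 was lower. The day 5 cells of MULTI-seq 1 had a median mitochondrial share of 5.45% and a median of 11142 UMIs, against 1.94% and 28193 UMIs in MULTI-seq 3; the part of these in the differences was not tested. Fgf17 ran from 2.12 over 68.5 to 105.6 CPM in MULTI-seq 1 and from 11.2 over 39.8 to 64.9 CPM in MULTI-seq 3 (MULTI-seq 3 minus MULTI-seq 1, −0.58 ± 0.24, adjusted p = 0.0323). The difference was −1.12 ± 0.24 for Fgf3 (adjusted p = 0.000100; means 12 and 4.80 CPM), −0.50 ± 0.17 for Etv4 (adjusted p = 0.0104), −0.71 ± 0.32 for Fgf4 (adjusted p = 0.0472), −0.48 ± 0.21 for Fgf15 (adjusted p = 0.0461) and 0.23 ± 0.08 for Spry2 (adjusted p = 0.0109). These were 6 of 9 members tested, beside 63.7% of 11718 genes (3518 higher in MULTI-seq 3 and 3945 lower; 1581 and 7169 with total UMIs). Of the 6, Fgf3 and Etv4 kept their call under each alternative run. Fgf4 lost it, among others, without lane A, B or C of MULTI-seq 3 (adjusted p = 0.0527, 0.0639 and 0.0599), Fgf15 lost it, among others, without lanes 1 (0.0547) or 3 (0.115) of MULTI-seq 1 and without lanes A (0.117) or B (0.0737) of MULTI-seq 3 as adjusted p, Fgf17 lost it in DESeq2 (adjusted p = 0.0641) and with no filter on low counts (adjusted p = 0.0574), and Spry2 lost it with total UMIs (0.0023, adjusted p = 0.98).

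The NMPs of MULTI-seq 1 (20 gastruloids) had the same ligand order as those of MULTI-seq 3, with 408.0 ± 33.0 CPM of Fgf8, 293.8 ± 43.2 CPM of Fgf17, 42.1 ± 16.2 CPM of Fgf3 and 13.4 ± 9.66 CPM of Fgf4. Fgf8 stood at 537.2 CPM and Fgf17 at 268.3 CPM in the day 5 NMPs of MULTI-seq 3. In MULTI-seq 2 the NMPs, Caudal Epiblast and Primitive Streak had too few cells for a level. Among the types with a level, Late Posterior PSM (12 gastruloids) was the top type of Fgf8 (143.6 ± 25.0 CPM), Fgf17 (62.5 ± 18.7 CPM), Fgf3 (55.3 ± 15.4 CPM) and Fgf4 (9.71 ± 3.16 CPM). It was also the top type of Fgf15 (11.98 ± 4.05 CPM), above Late Spinal Cord (9.07 ± 3.77 CPM) by less than the larger SD. In MULTI-seq 1 Fgf15 was highest in NMPs (10.55 ± 9.36 CPM) and Late Posterior PSM (10.48 ± 6.095 CPM), followed by Late Spinal Cord (3.61 ± 3.58 CPM). Late Neurectoderm, the top type of Fgf15 in MULTI-seq 3, had no level in MULTI-seq 1 or MULTI-seq 2.

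Across gastruloids of 1 day, the levels of the feedback genes correlated positively with that of Fgf8. Correlations of log2(CPM + 1) were computed for 4 targets in 8 groups of experiment and day, 32 in all, with 100000 permutations and Benjamini-Hochberg adjustment over the 32. Fgf8 and a target share a library, its depth and its cell type makeup. As a background, the same test was run with 10000 permutations on all genes with a mean of at least 1 CPM. A positive r with an unadjusted permutation p under 0.05 was found for 9.34%, 14.1%, 10.8%, 8.07% and 12% of them at days 3, 3.5, 4, 4.5 and 5 of MULTI-seq 3, for 3.17% and 8.06% at days 4 and 4.5 of MULTI-seq 2 and for 15% at day 5 of MULTI-seq 1. For Spry4, Pearson's r was 0.72 to 0.94 (median 0.90) and passed in 8 of 8 groups (Spearman's rho in 8 of 8). After leaving out the 2 gastruloids farthest from the median of Fgf8, 7 of 8 kept an unadjusted permutation p under 0.05; in the day 4 gastruloids of MULTI-seq 2, r was then 0.67 (permutation p = 0.0529).

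For Etv4, r was 0.62 to 0.94 and passed in 8 of 8 groups (rho in 6), and 6 kept it without the 2 gastruloids; at day 3.5, r dropped to 0.28. For Spry2, r was 0.48 to 0.90 and passed in 7 of 8 groups (rho in 6), and 1 of 8 kept an unadjusted p under 0.05. Without the 2 gastruloids r for Spry2 was still 0.51, 0.49 and 0.49 at days 4, 4.5 and 5 of MULTI-seq 3 and 0.41 at day 5 of MULTI-seq 1 (by permutation, p = 0.0619, 0.0701, 0.0732 and 0.0567), and it was 0.31 at day 3 of MULTI-seq 3 and 0.29 at day 4.5 of MULTI-seq 2. For Dusp6, r was 0.37 to 0.88 and passed in 6 of 8 groups (rho in 4), and 3 kept it; in day 4.5 of MULTI-seq 3 it went from 0.69 to −0.03. Spry4 and Etv4 thus passed in all 8 groups before these gastruloids were left out. The share of all genes whose r with Fgf8 was at or above that of the target had a median over the 8 groups of 0.218% for Spry4 (0.0327% to 1.16%), 0.656% for Etv4 (0 to 8.55%), 1.05% for Dusp6 (0.166% to 19.4%) and 2.42% for Spry2 (0.117% to 6.35%).

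**Figure D5:**
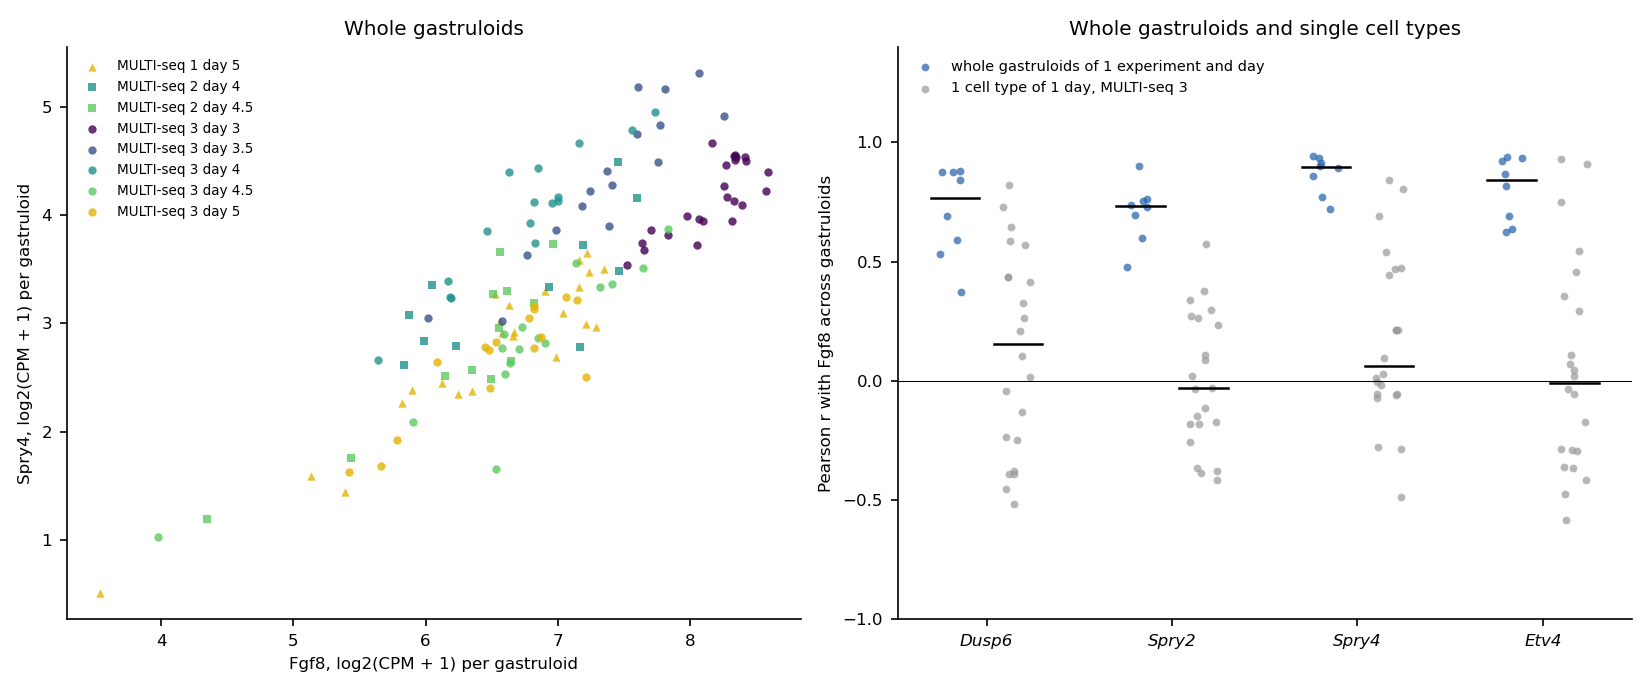
Left, Spry4 against Fgf8 in single gastruloids, both as log2(CPM + 1), by experiment (marker) and day (colour); right, Pearson r of each target with Fgf8 across whole gastruloids of 1 experiment and day (blue) and across gastruloids within 1 cell type of 1 day (grey), black lines at the medians. For Spry4 the median r is 0.90 over whole gastruloids and 0.06 within types.

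The same correlations were computed within single types of 1 day in MULTI-seq 3 (22 combinations with 10 to 24 gastruloids, 88 correlations); the difference between the whole and the within-type values was not tested. The median r was 0.06 for Spry4, 0.16 for Dusp6, −0.03 for Spry2 and −0.01 for Etv4. The values ran from −0.58 to 0.93, and 47 of 88 were above 0. With adjustment over the 88, 3 passed: Spry4 in Caudal Epiblast at day 3.5 (r = 0.84, n = 13, permutation adjusted p = 0.00821), Etv4 in Late Nascent Mesoderm at day 4 (r = 0.91, n = 11, permutation adjusted p = 0.00484) and Etv4 in Mature Endoderm at day 4 (r = 0.93, n = 13, permutation adjusted p = 0.00352). By Spearman's rho the Spry4 correlation did not pass (permutation adjusted p = 0.0679), the other two did (0.0466 and 0.0114), and so did Etv4 in Early Spinal Cord at day 4.5 (rho = 0.78, n = 14, permutation adjusted p = 0.0466). By Pearson's r, 16 had an unadjusted p under 0.05. Sums over 1 type hold fewer UMIs than sums over a gastruloid, and the adjustment covered more correlations.

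The receptors and the other genes of the pathway were read from lists. Fgfr1, the main receptor of the early mesoderm and streak, had 75.1 ± 6.28, 124.6 ± 24.6, 132.1 ± 24.4, 76.4 ± 7.70 and 71.4 ± 5.83 CPM at days 3, 3.5, 4, 4.5 and 5 of MULTI-seq 3. It was thus high at the 2 days in the middle, and the steps up (0.57) and down (−0.59) were called on the log2 scale, both across pools. Fgfr2 went from 2.31 CPM at day 3 to 12.9 CPM at day 5 and Fgfrl1, a receptor without a kinase domain, from 4.55 to 16.4 CPM. Fgfr3 and Fgfr4 did not exceed means of 1.91 and 0.211 CPM in any group, and Fgfr4 was not tested. From day 3.5 to 4, Fgfrl1 (0.81) and Fgfr3 (1.16) rose, and from day 4.5 to 5 Fgfrl1 did (0.27). In MULTI-seq 2, Fgfr1 fell from day 4 to 4.5 (−0.31).

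From day 3.5 to day 4, where 60.4% of all genes passed, the other lists moved in both directions. Of the adaptor and ERK cascade list, 9 of 17 genes rose and 2 fell (median log2 change 0.08), led by Mapk3 (0.54), which encodes ERK1, the adaptor gene Frs2 (0.47) and the docking protein gene Gab1 (0.43). Of the other feedback genes and targets, 6 of 17 rose and 9 fell (median −0.27), with the phosphatase gene Dusp5 (1.84) and Phlda1 (1.19) up and Lgals3 (−1.35) down. Of the co-receptors and matrix genes, 7 of 19 rose and 3 fell (median 0.02), led by Flrt2 (1.33), the glypican gene Gpc3 (1.23) and the syndecan gene Sdc3 (0.61). Of the other ligands, 3 of 8 rose and 2 fell (median 0.36); the largest changes were in Fgf1 (−1.17), Fgf14 (1.16) and Fgf12 (−0.79).

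From day 4.5 to day 5 13.5% of all genes passed. The list of other feedback genes had 3 of 16 up and 1 down (Phlda1 0.93, Errfi1 0.52, Dusp4 −0.32), the ERK cascade list had Map2k1 up (0.15) as 1 of 17, and the other ligands had Fgf18 up (1.13) as 1 of 5. In MULTI-seq 2, where 7.36% of all genes passed from day 4 to 4.5, the other feedback list had 1 of 16 up and 2 down (Dusp9 −1.64, Errfi1 0.46, Spred1 −0.30). A list of 12 genes held immediate early genes, which FGF and cell dissociation can both switch on, and the heat-shock genes Hspa1a and Hspa1b. Its summed level was 129.0 ± 9.05, 113.5 ± 13, 136.4 ± 20.9, 133.0 ± 52.1 and 147.4 ± 33.6 CPM from day 3 to day 5 of MULTI-seq 3. The part of these genes in the members' changes was not tested.

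Inside Caudal Epiblast, where 18.8% of all genes passed, the list of other feedback genes had 1 of 11 up and 2 down and the ERK cascade list 1 of 15 up. Inside Early Posterior PSM, where 36.9% of all genes passed, the feedback list had 3 of 16 up and 6 down and the ERK cascade list 5 of 15 up.

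Over the 40 combinations of type and day with a level in MULTI-seq 3, the genes whose pattern was most like each member were picked from 7558 genes by Pearson's r of mean log2(CPM + 1). The combinations share cell types, libraries and gastruloids, so r is a description here. Fgf8 was most like T (0.88), Wnt3a (0.88) and Npm3 (0.88), and Fgf4 like Wnt3a (0.90), Fbxl17 (0.87) and its neighbour Fgf3 (0.87). Fgf3 was most like Tbx6 (0.87), Fgf4 (0.87) and Ets2 (0.84), and Fgf17 like Amph (0.91), Atpaf1 (0.85) and Smim3 (0.84). Fgf5 was most like Dppa5a (0.90), Dapk2 (0.88) and Cobll1 (0.87), and Fgf15 like Fabp7 (0.80), Fgf4 (0.79) and Lrp8 (0.78). The highest mean of Fgf15 in these combinations was 12 CPM, below the minimum of 20 CPM set for the other genes, and they leave out Late Neurectoderm, its top type, which had too few gastruloids on any 1 day.

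Among the feedback genes, Spry4 was most like Spred2 (0.88), another inhibitor of this cascade, Chst7 (0.87) and Alpl (0.82), and Etv4 like Pak1ip1 (0.85), Tfrc (0.85) and its relative Etv5 (0.84). Dusp6 was most like Oat (0.84), Epha1 (0.83) and Pak1ip1 (0.81), and Spry2 like Timm50 (0.83), Pcolce2 (0.78) and Lor (0.77).

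The lanes without gastruloid calls give single values. The 10X lane of day 3 (3058 cells) held 227.2 CPM of Fgf8 (exact Poisson 95% interval 223.3 to 231.3), 67.1 CPM of Fgf5 (65.0 to 69.4) and 14.5 CPM of Fgf17 (13.5 to 15.5). The 10X lane of day 4 (2440 cells) held 120.4 CPM of Fgf8 (116.9 to 123.9), 3.27 CPM of Fgf5 (2.72 to 3.91) and 39.8 CPM of Fgf17 (37.8 to 41.9). Fgf8 and Fgf5 were lower and Fgf17 higher in the day 4 lane, as between days 3 and 4 of MULTI-seq 3, with 1 lane per day and so no replicate check. Pool C of MULTI-seq 2 (5106 cells of days 4 and 4.5 mixed) held 101.3 CPM of Fgf8 (99.4 to 103.1), 32.7 CPM of Fgf17 and 8.85 CPM of Spry4.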

How the data were processed

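The deposited matrices hold UMI counts per gene and cell barcode, which the authors made with Cell Ranger 6.0.0 on mm10, per the submitters' processing notes, and their cell table gives the final cells, gastruloid calls, days and type names. Counting settings: not given in the sources used here. Cells called doublet, negative or unclear by barcode entered no sum; no doublet caller was run, so doublets within a gastruloid can remain. Days 3 and 3.5 of MULTI-seq 2 are not analysed here, and 0 per-sample columns were left unused.

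Counts were summed per gastruloid (at least 30 cells), and per gastruloid and type (at least 20 cells; tests with at least 4 gastruloids per day). Tests used edgeR 4.0.16 in R 4.3.3 (filterByExpr, TMM, quasi-likelihood test, Benjamini-Hochberg over all genes tested), fitted to the groups compared. On simulated counts for day 4 against day 3.5 (13262 genes) it recovered 82.1%, 97.0% and 100.0% of 67, 67 and 66 genes changed 1.5-fold, 2-fold and 4-fold. Rises and falls were balanced in the simulation, and few genes changed, whereas 60.4% of genes were called in the data. It thus does not cover the choice of scaling or the smaller sums within types. Alternatives were DESeq2 1.42.0, other scalings, no filter, higher cell minimums, and leaving out lanes or gastruloids. Levels, shares and correlations used Python 3.11.15 (pandas 2.3.3, scipy 1.17.1), with a pseudocount of 1 on the log2 scale. The shares of all genes that did not overlap between days or that correlated with Fgf8 were added after the members' values were seen. The test of the difference between Caudal Epiblast and Early Posterior PSM was added after the fits within these types were seen. Markers, pathway lists and the members were chosen with earlier results of these data known. All members are named; of each pathway list up to 3 called genes with the largest change are named, receptors always, and the 3 types with the highest level of a member. Positions come from the GENCODE annotation of mm10, promoters and their sequences from RefSeq (GRCm38.p6).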

Additional observations from a re-analysis of the deposited data

Results flagged for a closer look

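In 2 cases a gastruloid stood apart from the rest in the NMPs of day 4.5 in MULTI-seq 3. The highest of the 8 for Fgf3 held 70.3 CPM, against a median of 38.8 and a lowest value of 27.1 CPM, and the highest for Dusp6 held 59.0 CPM, against a median of 29.4 and a lowest value of 19.4 CPM. Of 15 groups of 4 to 10 gastruloids tested with Dixon's ratio, these 2 passed, and chance flags about 1 in 20 groups.

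The change from day 3.5 to day 4 differed between Caudal Epiblast and Early Posterior PSM, by the test of the difference itself with edgeR, for 6 members. That test was added after the fits within these types had been seen, on the same data. The change in Caudal Epiblast minus that in Early Posterior PSM was, on the log2 scale, 2.41 for Fgf3, 0.82 for Fgf8, 1.39 for Fgf15, 2.82 for Fgf17, 0.90 for Dusp6 and 0.54 for Spry4. Over 10232 genes tested, 926 passed, which is 9.05%.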

How the results depend on the processing

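The 2 cell types of 1 gastruloid were compared with the gastruloid as a term. No paired analysis was possible because, between days, the numbers in the labels mark lanes, which are technical splits of a pool, and gastruloids are separate on each day: the days of a pool share no barcode number, and a barcode used again in another pool marks another gastruloid. Where a cause is not given below, it was not tested. Of the called changes of members in whole gastruloids, 208 values under the alternatives stayed called and 29 did not, and none reversed; within cell types the numbers were 86 and 7. A minimum of 40 cells per type could not be applied to NMPs, Late Anterior PSM or the 2 types of MULTI-seq 2, where too few gastruloids were left. Low genes are limited by depth: Fgf4, Fgf15 and late Fgf5 had means of a few CPM per gastruloid.

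Of the members called for day 5 against day 4.5 in MULTI-seq 3 (2), 1 was called with no low-count filter, 1 with total UMIs and 0 without lane A. For day 4.5 against day 4 in MULTI-seq 2 (1 member, 814 genes), 0 members were called with total UMIs, 0 without lane 2 (535 genes) and 0 without lane 3 (340 genes). For MULTI-seq 3 against MULTI-seq 2 at day 4 (0), 2 were called with total UMIs and 1 without lane 3 of MULTI-seq 2. At day 4.5 (2), 1 was called with no filter, with at least 100 cells, with total UMIs, without lane 3 of MULTI-seq 2, and without lane A or lane C of MULTI-seq 3. For MULTI-seq 3 against MULTI-seq 1 (6), 3 were called with no filter. Within types, at least 40 cells left 581 of 1661 genes and 3 of 5 members called in Caudal Epiblast, and 513 of 926 genes for the difference between types, with fewer gastruloids. DESeq2 called 1 member in Early Spinal Cord (0 with edgeR) and 1 in Late Posterior PSM (2 with edgeR). Leaving out 1 gastruloid at a time gave 22 to 69 genes in Late Posterior PSM of MULTI-seq 2 (57), 10 to 128 genes and 0 to 1 members in Mature Somites of MULTI-seq 2 (81 and 0; the 1 member came without gastruloid 4 of day 4) and 89 to 142 genes in Late Anterior PSM (130). The correlation of Dusp6 with Fgf8 at day 4 of MULTI-seq 2 went from 0.53 to 0.87 with at least 100 cells. By embryo names the highest type level was 54.0 in place of 80.6 CPM for Dusp6 and 205.4 in place of 106.5 CPM for Fgf5.

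Each reversal was in a member that the test had not called. With total UMIs the log2 change was 0.080 for Etv4 from day 3 to 3.5, −0.035 for Dusp6 and −0.19 for Spry2 from day 4 to 4.5 of MULTI-seq 3, 0.034 for Fgf15 between MULTI-seq 3 and 2 at day 4, −0.040 for Fgf17 and −0.034 for Spry4 between them at day 4.5, −0.074 for Fgf8 between MULTI-seq 3 and 1, and −0.14 for Fgf3 in the difference of the day 4 to 4.5 changes. With at least 100 cells it was −0.045 for Fgf4 from day 3.5 to 4, 0.086 for Dusp6 in MULTI-seq 2, −0.063 for Fgf17 and −0.053 for Spry4 between MULTI-seq 3 and 2 at day 4.5, and 0.062 for Fgf4 in the difference of changes. With no filter it was −0.066 for Spry2 from day 4 to 4.5 of MULTI-seq 3, with DESeq2 0.016 for Spry4 between MULTI-seq 3 and 1, and with at least 40 cells −0.064 for Spry2 in Late Posterior PSM. Without lane B of the day 3.5 and 4 pool it was −0.048 for Fgf4 from day 3.5 to 4 and 0.024 for Fgf3 from day 4 to 4.5, and without its lane C 0.016 for Fgf3 and −0.0041 for Spry2. Without lane B of the day 4.5 and 5 pool it was 0.054 for Fgf3 and −0.012 for Spry2 from day 4 to 4.5 and −0.066 for Spry4 between MULTI-seq 3 and 2. Without its lane A it was −0.17 for Fgf4, −0.064 for Fgf17 and −0.012 for Spry4 in that comparison. Without lane 3 of MULTI-seq 2 it was −0.056 for Fgf17 and 0.054 for Dusp6 from day 4 to 4.5 and −0.0053 for Fgf17 between experiments, and without lane 2 −0.053 for Fgf17 and −0.075 for Spry4. Without lane 3 of MULTI-seq 1 it was 0.00044 for Spry4.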
